A study of Mus musculus with 55 samples.

Results

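Cells mark proteins near damaged DNA with ubiquitin, and 9 genes that write this mark were followed across mouse bone marrow stem and progenitor cells with and without Tet2, the enzyme that oxidises 5-methylcytosine. They are the E3 ligases Rnf138 and Rad18, the E2 conjugating enzymes Ube2a, Ube2b, Ube2n, Ube2d2a and Ube2d3, and the E2 variants Ube2v1 and Ube2v2. The set was drawn by name, as Rnf138, Ube2a and Ube2d3, which the study reports as significantly lower in Tet2-/- LT-HSCs, and their relatives. The rule itself uses no measured value, but the study named those genes from these libraries, so their values in Tet2-/- LT-HSCs are not independent of the choice. All 9 were found among the 55421 genes of the main count table and among the 35976 rows of a second one.

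The main set held 46 bulk RNA-seq libraries of sorted C57BL/6 cells, 22 wildtype (WT) and 24 Tet2-/-, from 6 populations. These were long-term and short-term haematopoietic stem cells (LT-HSC, ST-HSC) and the common myeloid, granulocyte-macrophage, megakaryocyte-erythroid and common lymphoid progenitors (CMP, GMP, MEP, CLP). Each population had 4 libraries per genotype, except for 3 WT libraries of LT-HSCs and of ST-HSCs. A second set held 9 LT-HSC libraries, 3 each labelled WT, Sting-/- and Tet2;Sting double knockout. Tet2-/- animals carried Tet2 f/f with Mx1-Cre, which poly(I:C), an inducer of interferon, switches on in blood cells and in other cells that answer interferon, and they were kept for weeks after induction. For the second set the study writes its WT genotype as Tet2 wt/wt. Whether WT animals of the main set carried the floxed alleles, or any WT animals had poly(I:C), is not given in the sources used here. Sting-/- is a germline deletion, and the double knockout combined it with Tet2 f/f and Mx1-Cre. The labels give 200 sorted cells per library, and a low transcript is sampled unevenly in so few cells.

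The main libraries held 50458473 to 102148079 counts and the second set 26776517 to 78682096. All values below are CPM, counts relative to a library total that is scaled by the trimmed mean of M values (TMM). The summed CPM of 7 stem cell markers was 307 to 512 in WT LT-HSCs and ST-HSCs, against 7.98 to 79.7 in WT progenitors. Within the main set CLP libraries detected the fewest genes, 13754 to 16903, where the other populations had 17586 to 20964. Libraries of the second set, counted over its own rows, detected only 9382 to 11528. The highest Spearman correlation between libraries was 0.72 there and 0.955 in the main set. Reads on Tet2 itself had no common direction with the label, with lower Tet2-/- means in ST-HSCs (22.6 and 18.7 CPM in WT and Tet2-/-), CMPs (20.9 and 16.2) and MEPs (12.3 and 11.0) and higher ones in LT-HSCs (13.2 and 23.96), GMPs (37.7 and 48.0) and CLPs (18.7 and 44.6). The ranges overlapped in all 6 populations, and a count over the whole gene does not isolate the floxed exons, so it is no check of the labels. In bulk libraries fewer cells that use a gene and less RNA per cell cannot be told apart.

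Ubiquitin passes from an E1 to an E2 enzyme and is set on its target with the help of an E3 ligase. At stalled replication forks RAD18 works with the RAD6 enzymes, encoded by Ube2a and Ube2b, to place a single ubiquitin on PCNA, the sliding clamp, and the UBC13 enzyme (Ube2n) with its partner MMS2 (Ube2v2) can extend it to a chain. At double-strand breaks UBC13 builds the chains that recruit repair factors, while RNF138 works with enzymes of the UBCH5 family (among them Ube2d2a and Ube2d3) to mark Ku and CtIP during the trimming of broken ends.

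Ube2d3 was called at least 2-fold lower in Tet2-/- CMPs and MEPs, and for that reason the sequence before its outermost start site is shown. The bases come from the most upstream of several Ube2d3 windows in a RefSeq promoter table of GRCm38.p6, which matched 6 of the 9 genes. The bases are cut at the outermost annotated GENCODE start. They span chr3:135437982-135438148 on the plus strand (167 bases, 19 CpG dinucleotides) and run 5′ to 3′ along the gene. Capitals mark GC boxes (GGGCGG or CCGCCC on the strand shown) and a CCAAT box read on the other strand (ATTGG).
Ube2d3: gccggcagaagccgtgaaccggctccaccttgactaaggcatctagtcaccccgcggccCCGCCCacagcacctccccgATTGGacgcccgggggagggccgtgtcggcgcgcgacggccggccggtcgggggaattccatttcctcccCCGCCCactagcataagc

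The stretch is rich in G and C (70.7%) and holds 2 GC boxes and 1 CCAAT box. Searched on both strands of the 250 bases before the start in all 32851 mouse promoter windows, GGGCGG was found in 32.7%, CCAAT in 33.8%, the ETS core CCGGAA in 12% and the TATA motif TATAAA in 12.4%. The ETS core, the TATA motif and the cyclic AMP element TGACGTCA (1.55% of windows) were not in the printed stretch. That stretch is shorter than the 250 bases searched, and the same window uncut holds 4 GC boxes. Another Ube2d3 window, at 135438230-135438479, holds 1 ETS core. The median window held 6 CpG dinucleotides and 52.4% G and C. A match is a description of the letters only, and no binding or methylation was measured here.

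The members lie apart in the genome. In GENCODE vM21 (GRCm38) they are all protein-coding genes: Rnf138 on chromosome 18 at 21001341-21028224, Rad18 on chromosome 6 at 112619850-112696686, Ube2a on chromosome X at 36873900-36884222, Ube2b on chromosome 11 at 51985497-52000762 and Ube2n on chromosome 10 at 95515145-95545657. Ube2v1 lies on chromosome 2 at 167607638-167632095, Ube2v2 on chromosome 16 at 15552077-15595773, Ube2d2a on chromosome 18 at 35771558-35809494 and Ube2d3 on chromosome 3 at 135438149-135468198. Counts summed whole genes, so exons and UTRs were not separated. Ube2v1 shares 1673 exonic bases with the gene Gm20431 on its own strand, and 208 with Gm11476 on the other strand, Ube2d2a shares 309 with AC141471.2 on its own strand, and Ube2d3 shares 198 with the antisense transcript 4930539J05Rik, so reads from those stretches are uncertain. Gm20431 was listed at 0 in all 46 libraries.

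The level of each member across populations and genotypes is shown first, library by library.

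**Figure D1:**
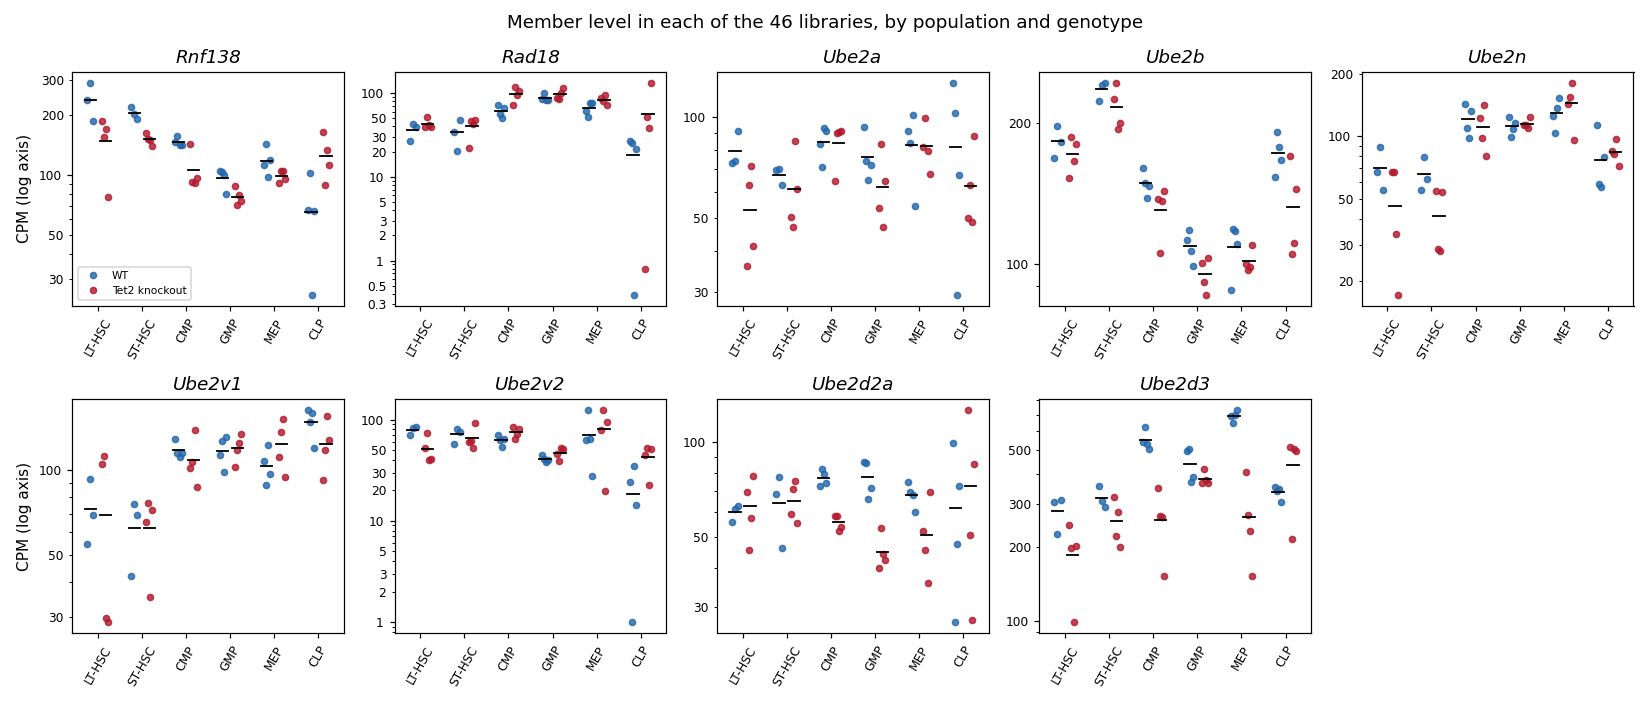
Level of the 9 members in each of the 46 libraries, in CPM on a log axis, by population. Points are libraries (blue WT, red Tet2-/-, labelled Tet2 knockout) and bars are group means. Ube2d3 of Tet2-/- lies below WT in every CMP and MEP library (at most 351 and 408 CPM), whereas Ube2b falls from the stem cells to GMPs and MEPs in both genotypes.

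Among WT populations, 5 of the 9 members differed (edgeR quasi-likelihood F test over 22 libraries, Benjamini-Hochberg adjusted p under 0.05), where 44.5% of the 20006 genes tested did. These were Rnf138, Ube2b, Ube2d3, Ube2n and Ube2v1. In Tet2-/- libraries 4 members differed among populations (Rnf138, Ube2b, Ube2d3 and Ube2n), beside 40.2% of 19415 genes. That for Ube2d3 (adjusted p = 0.0278) was lost without CLP Tet2-/- replicate 4 or 5 or GMP Tet2-/- replicate 3 (0.0515 to 0.0545). Others passed when 1 library was left out: Rad18 without CLP Tet2-/- replicate 2 (0.00249), Ube2v1 without LT-HSC Tet2-/- replicate 2 or 3 (0.0339 and 0.0267) and Ube2v2 without MEP Tet2-/- replicate 4 (0.011).

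Of the ligases, Rnf138 was highest in the stem cells. In WT it stood at 186, 236 and 290.4 CPM in LT-HSCs and at 191, 201 and 218 in ST-HSCs. Its WT means then stepped down through CMP (146), MEP (118), GMP (96.7) and CLP (65.0), a 3.66-fold range (adjusted p = 0.000222). Only the step from ST-HSC to CMP separated the libraries of neighbours in this order, and no neighbouring pair passed the test.

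A test of whether the genotype effect on Rnf138 differed among populations passed narrowly (edgeR adjusted p = 0.0469). It failed in 38 of the 46 fits that left out 1 library. Rnf138 had a higher Tet2-/- mean in CLPs and lower ones elsewhere, and passed in no single population in the main fits. In ST-HSCs it was 139, 150.2, 151 and 163 CPM in Tet2-/-, all below the lowest WT library (log2 fold change -0.40, SE 0.15; adjusted p = 0.67), and the exact permutation test gave p = 0.0286, as low as 4 against 3 libraries can go. Of all genes, 4.86% were lower without overlap there. In LT-HSCs the Tet2-/- libraries held 77.5, 155, 170.3 and 187, and the highest of them overlapped WT. In CLPs the direction was the opposite: 24.9, 65.9, 66.8 and 102 CPM in WT and 88.6, 112, 133 and 163 in Tet2-/-, with 3 of 4 above the highest WT library (0.89, SE 0.43; adjusted p = 1.0). CMPs, GMPs and MEPs had small decreases of 0.26 to 0.48 on the log2 scale, none past the test, although the adjusted p in CMPs passed without Tet2-/- replicate 2 (0.00863) and in DESeq2 (0.0484), and that in CLPs with all 46 libraries in one fit (0.0197).

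Rad18 had higher means in myeloid progenitors. WT means were 36.5 ± 8.50 CPM in LT-HSCs and 34.4 ± 13.8 in ST-HSCs (SD, n = 3) and 61.3 ± 9.98 in CMPs, 66.2 ± 11.7 in MEPs and 87.8 ± 9.02 in GMPs (n = 4), a difference among populations that missed the threshold (adjusted p = 0.0603). CLPs had the lowest WT mean, 18.4, with libraries of 0.385, 21.5, 25.3 and 26.5, and were called lower than CMPs, GMPs and MEPs (adjusted p = 0.0487, 0.0132 and 0.0315). Tet2-/- CLPs held 0.785, 38.5, 51.8 and 134. Without the lowest WT CLP library, replicate 4, the difference among WT populations passed (adjusted p = 3.98e-05). With all libraries it passed in DESeq2 (adjusted p = 0.0486). In CMPs Rad18 stood at 50.5, 55.7, 66.9 and 72.2 CPM in WT and at 72.8, 94.0, 106 and 117 in Tet2-/-, groups that did not overlap (log2 fold change 0.66, SE 0.18; adjusted p = 0.0586; exact permutation p = 0.0286). The adjusted p passed without Tet2-/- CMP replicate 2 (0.0237) and in DESeq2 (0.00619). Non-overlap in that direction was seen for 6.77% of genes. The fitted change was positive in all 6 populations, and the mean effect over them was 0.53 (SE 0.27; adjusted p = 0.325).

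Proliferation markers differed between genotypes in CMPs, GMPs and MEPs. Rad18 did not pass there in the main fits, and its GMP and MEP libraries overlapped between genotypes. The summed CPM of 6 markers (Mki67, Top2a, Ccnb1, Cdk1, Mcm2, Mcm5; all detected) was 888 to 1312 in WT and 1424 to 1735 in Tet2-/- CMPs, 1159 to 1585 and 1685 to 1781 in GMPs, and 992 to 1150 and 1240 to 1564 in MEPs. These ranges do not overlap in any of the 3 populations. Their part in the values of Rad18 was not tested.

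The RAD6 pair showed different patterns. Ube2b was highest in ST-HSCs, with 223, 241 and 244 CPM in WT ST-HSCs, 168 to 197 in LT-HSCs, 153 to 192 in CLPs, 138 to 161 in CMPs, 99.3 to 118 in GMPs and 88.3 to 119 in MEPs (adjusted p = 8.36e-07). CLPs overlapped LT-HSCs (adjusted p = 0.874 for that pair), and their mean moved with the scaling, from 109 by plain library totals to 195 by RLE. Libraries of ST-HSCs lay above those of LT-HSCs without overlap (adjusted p = 0.384 for that pair), and those of CMPs above GMPs (adjusted p = 0.0351 for that pair), while GMPs and MEPs could not be separated. Ube2a was level: its WT means ran from 67.5 in ST-HSCs to 84.5 in CMPs, a 1.25-fold range, and no difference was detected (adjusted p = 0.963).

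Neither RAD6 gene passed the genotype test in any single population, except Ube2b in CLPs with all 46 libraries in one fit (adjusted p = 0.0417). Ube2b was lower in Tet2-/- by 0.08 to 0.43 on the log2 scale in each of the 6 populations. In one model of all 46 libraries its mean effect was -0.19 (SE 0.06; adjusted p = 0.028), a fall of small size that did not pass without the low-count filter (adjusted p = 0.0792) or on leaving out any of 7 of the 46 libraries. These were CLP WT replicates 3, 4 and 5, CLP Tet2-/- replicate 5, CMP Tet2-/- replicate 5, LT-HSC WT replicate 3 and MEP Tet2-/- replicate 4 (adjusted p from 0.0519 to 0.118). Ube2a of LT-HSCs stood at 72.8, 74.1 and 90.8 CPM in WT and 36.0, 41.3, 62.9 and 71.5 in Tet2-/-, with all 4 below the lowest WT library (-0.57, SE 0.28; adjusted p = 0.998; exact permutation p = 0.114), as were 3.84% of genes. In CMPs its means were 84.5 ± 9.86 and 83.8 ± 12.8 CPM.

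Of the chain-building enzymes, WT Ube2n was higher in CMPs, GMPs and MEPs than in stem cells, and its partner Ube2v1 was higher in CMPs and GMPs. WT Ube2n was 54.7 to 89.3 CPM in LT-HSCs, 54.8 to 79.9 in ST-HSCs and 98.1 to 153 over CMPs, GMPs and MEPs together (adjusted p = 0.00239), and these 3 populations each passed against both stem cell groups (adjusted p from 0.0061 to 0.0392). CLPs, at 57.0 to 113, overlapped LT-HSCs and ST-HSCs (adjusted p = 0.646 and 0.442), and their mean was 77.1 here and 50.6 by plain library totals. In Tet2-/- libraries ST-HSCs held 28.0, 28.5, 53.9 and 54.2 and MEPs 95.8, 144, 156 and 182, a 3.51-fold difference of means (adjusted p over populations = 0.000579). WT Ube2v1 was lowest in ST-HSCs (62.2 ± 17.9, SD, n = 3) and highest in CLPs (148 ± 20.1, n = 4; adjusted p = 0.000221), while MEPs overlapped LT-HSCs (adjusted p = 0.103 for that pair). That place of CLPs depends on the scaling, since by plain library totals their mean was 94.3 and that of CMPs 131.

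Over the 46 libraries Ube2n and Ube2v1 had the highest correlation among member pairs (Pearson r = 0.75 of log2 CPM), and Ube2n and Ube2b the lowest (r = -0.68). These values describe libraries that share populations and depth, and they carry no test. Ube2v2, the MMS2 subunit, did not follow its homologue, with r = -0.24 to Ube2v1. In WT its mean was 79.2 for LT-HSCs, 71.8 for ST-HSCs, 70.02 for MEPs, 62.5 for CMPs, 40.7 for GMPs and 18.6 for CLPs (adjusted p = 0.0785), and its spread in MEPs was wide, from 27.6 to 124 CPM. By pairs, WT CLPs were called lower than LT-HSCs, ST-HSCs, CMPs and MEPs (adjusted p = 0.0168, 0.0246, 0.0371 and 0.0198), although CLP and MEP libraries overlapped. Without CLP WT replicate 3 or 4 the difference among WT populations passed (adjusted p = 0.00934 and 0.0309).

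None of these 3 genes passed a genotype test. By unadjusted p the nearest was Ube2v2 in LT-HSCs, at 70.3, 82.4 and 85.0 CPM in WT and 39.7, 40.4, 52.1 and 73.4 in Tet2-/- (-0.61, SE 0.26; unadjusted p = 0.0465; adjusted p = 0.95). Ube2n in ST-HSCs had all 4 Tet2-/- libraries below the lowest WT library, by the narrow margin of 54.2 to 54.8 CPM. Its change was -0.64 (SE 0.31, edgeR adjusted p = 0.891), and the exact permutation test gave p = 0.114. Of all genes, 4.86% were lower without overlap in ST-HSCs. In LT-HSCs the Tet2-/- libraries of Ube2v1 split into 28.6 and 29.6 against 105 and 113, around a WT range of 54.7 to 93.2.

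Among these 9 genes every call between Tet2-/- and WT was of Ube2d3. Calls needed an adjusted p under 0.05 and at least a 2-fold change. In CMPs 1 of 9 members was called lower, beside 3.92% of the 16047 genes tested. In MEPs it was again 1 of 9 (4.21% of 14934), and in GMPs none was called (4.07% of 16563), although Ube2d2a passed the adjusted p. No member was called higher in these populations, where 0.654%, 0.308% and 0.147% of genes were.

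In the stem cells and CLPs no member was called in either direction. Rnf138, Ube2a and Ube2d3, which the study reports as reduced in LT-HSCs, had lower Tet2-/- means there. They did not pass (edgeR adjusted p = 0.995, 0.998 and 0.998). Over the alternatives run, DESeq2 included, their lowest adjusted p was 0.478, 0.511 and 0.56. Over all genes edgeR called 0 lower and 4 higher in LT-HSCs (0.0245%), 0 and 3 in ST-HSCs (0.0185%), and 0 and 1 in CLPs (0.00766%). At an unadjusted p under 0.05 it found 5.16%, 6.13% and 3.65% of genes, and among members Ube2v2 in LT-HSCs and Rnf138 in ST-HSCs.

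Ube2d3, an E2 of the UBCH5 family, was called lower in CMPs and MEPs and not in the other populations. In WT it was highest in MEPs (646, 690.2, 699 and 732 CPM), followed without overlap by CMPs (508 to 624) and GMPs (371 to 507, the nearest libraries at 508.1 and 507.2), with CLPs, ST-HSCs and LT-HSCs at means of 336, 320.2 and 282 (adjusted p = 2.10e-06). The steps from MEP to CMP and from CMP to GMP did not pass (adjusted p = 0.211 and 0.251). By plain library totals the CLP mean was 214, below both stem cell groups. Tet2-/- MEPs held 152, 233, 272 and 408 (log2 fold change -1.39, SE 0.25; adjusted p = 0.0096; exact permutation p = 0.0286). Tet2-/- CMPs held 154, 267, 269 and 351 against 508, 532, 543 and 624 in WT (-1.10, SE 0.21; adjusted p = 0.0132; exact permutation p = 0.0286).

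In both populations every Tet2-/- library lay below every WT library, a pattern in that direction shared by 9.02% of genes in CMPs and 8.44% in MEPs. In GMPs the mean was lower and the groups overlapped, at 367, 368, 378 and 418 in Tet2-/- against 371, 387, 497 and 507 in WT (-0.24, SE 0.12; adjusted p = 0.342). Without Tet2-/- CMP replicate 5, the change of Ube2d3 in CMPs was -0.92 and so under 2-fold, with an adjusted p of 0.00694. In CLPs 3 of 4 Tet2-/- libraries lay above WT (496, 505 and 517, against 306 to 352), and the remaining one held 216. In LT-HSCs it stood at 228, 306 and 313 in WT and at 98.7, 198, 202 and 246 in Tet2-/-, with 3 of 4 below the lowest WT library (-0.59, SE 0.31; adjusted p = 0.998). In ST-HSCs it stood at 292, 310.1 and 358 in WT and at 202, 223, 278 and 322 in Tet2-/- (-0.29, SE 0.20; adjusted p = 0.999).

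Ube2d2a, of the same family, was lower in GMPs and CMPs. It was flat among WT populations (means of 60.2 to 77.8 CPM; adjusted p = 0.666). In GMPs it held 66.4, 71.8, 86.2 and 86.7 in WT and 39.9, 42.4, 44.1 and 53.3 in Tet2-/- (-0.83, SE 0.14; adjusted p = 0.0033). In CMPs it held 72.7 to 82.3 against 52.2 to 58.5 (-0.48, SE 0.11; adjusted p = 0.0273). Both falls passed the adjusted p and missed the 2-fold bound, and neither pair of groups overlapped; by adjusted p alone 5.49% and 5.18% of genes were lower, and 7.28% of genes in GMPs were lower without overlap. With all 46 libraries in one fit neither passed (adjusted p = 0.498 in GMPs and 0.735 in CMPs). That in CMPs was also lost with a replicate block (0.096) and without Tet2-/- replicate 2, 4 or 5 or WT replicate 3, 4 or 5 (0.0564 to 0.0854). In MEPs the value of -0.43 (SE 0.20) did not pass (adjusted p = 0.342).

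The fitted changes of all members are set side by side in the plot of log2 fold changes by population.

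**Figure D2:**
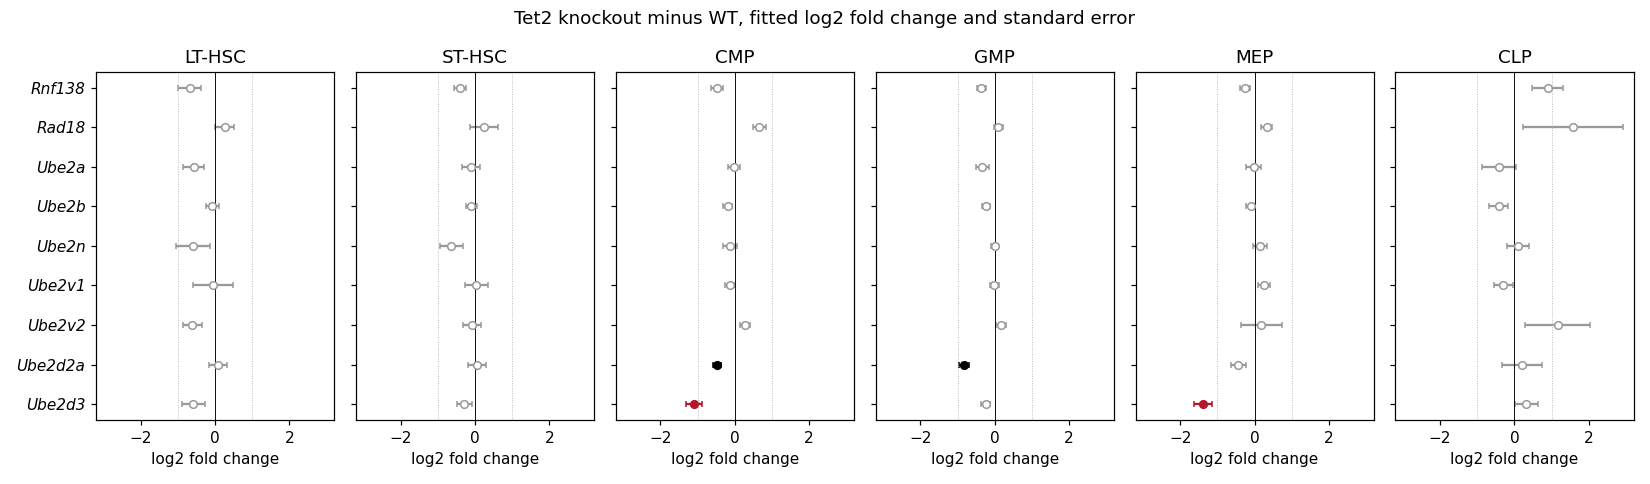
Fitted log2 fold change of Tet2-/- minus WT (edgeR) for the 9 members, 1 panel per population; bars are standard errors and dotted lines mark 2-fold. Filled red points were called, filled black points passed the adjusted p alone, and open points did not pass. The red points are Ube2d3 in CMPs and MEPs, and the black ones Ube2d2a in CMPs and GMPs. The longest bars are those of Rad18 and Ube2v2 in CLPs.

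A ratio of 2 genes in the same library does not depend on how libraries are scaled. Log2 ratios were compared for 3 pairs of relatives in 6 populations, and none of the 18 passed after adjustment (smallest adjusted p = 0.171, exact permutation test). The ratio of Ube2d2a to Ube2d3 did not overlap between genotypes in 3 populations and went in different directions, with +0.67 in CMPs, +1.0 in MEPs and -0.60 in GMPs (exact permutation p = 0.0286 each, the smallest possible). For Ube2a to Ube2b and Ube2v1 to Ube2v2 the genotypes overlapped in all 6 populations.

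Near-identical copies could take reads from some members. Ube2d-ps, a transcribed pseudogene of the family, stood at 12.99 ± 4.18 CPM in WT and 11.9 ± 1.12 in Tet2-/- CMPs. It was at 14.99 ± 4.45 and 13.9 ± 1.64 in GMPs and at 16.7 ± 7.04 and 13.8 ± 3.34 in MEPs. The ranges overlapped in each of these populations. Ube2d2b was listed at 0 in most groups and Ube2nl reached at most 0.125 CPM. Ube2n-ps1 was at 1.58 to 5.96 CPM on average.

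Markers of other lineages differed between the CMP groups as well. The summed CPM of 8 erythroid markers was 432 to 1539 in WT CMPs and 2677 to 5476 in Tet2-/- CMPs, without overlap, and Car1 made up most of it (877 and 3596 on average). Klf1 of the same list went the other way, from 26.1-71.5 to 13.7-19.3 CPM. The sums overlapped in WT and Tet2-/- GMPs (20.4 to 75.1 and 33.5 to 67.7) and MEPs (12736 to 14687 and 13881 to 18863). Granulocyte-monocyte markers in CMPs summed to 3785 to 5288 in WT and 3483 to 3803 in Tet2-/-. Mitochondrial genes took 5.94% to 6.57% of counts in WT and 7.85% to 8.37% in Tet2-/- CMPs. Their share was also higher without overlap in Tet2-/- GMPs (3.64% to 4.6% in WT, 4.74% to 5.09% in Tet2-/-) and ST-HSCs (8.73% to 9.02% and 10.0% to 13.1%), and ranges overlapped in MEPs, in LT-HSCs (8.02% to 9.5% and 8.82% to 14.5%, with 3 of 4 Tet2-/- libraries above WT) and in CLPs (2.41% to 4.58% and 3.11% to 12.5%). The proliferation sums given above separated the genotypes in CMPs, GMPs and MEPs. In CLPs the sums spread widely between libraries. Granulocyte-monocyte markers summed to 4.65 to 3119 in WT and 2.60 to 12364 in Tet2-/- CLPs. Megakaryocyte markers summed to 0.187 to 8.41 and 0.154 to 1481, and B cell markers to 538 to 1055 and 220 to 582. Lymphoid progenitor markers summed to 1478 to 1958 and 553 to 2761. Each of these CLP ranges overlapped between genotypes. The part of these differences in the values of the members was not tested.

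Whether the genotype effect differed among populations was tested in the model of 46 libraries. It did for Ube2d3 (adjusted p = 0.018) and Rnf138 (0.0469), beside 2.68% of 22360 genes. The result for Rnf138 lay close to the threshold: it passed in only 8 of the 46 fits that left out 1 library and failed with another scaling (0.074) and without the low-count filter (0.0631). That for Ube2d3 passed in 43 of 46, failing without CLP Tet2-/- replicate 5, CLP WT replicate 5 or MEP Tet2-/- replicate 4 (adjusted p from 0.056 to 0.0707), and missed narrowly with voom and libraries of the same genotype and number as a block (0.051). The mean effect over the 6 populations passed for Ube2d3 (-0.55, SE 0.10; adjusted p = 0.000416) and, as given above, Ube2b, beside 4.02% of genes lower and 2.92% higher.

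Of 98 further genes of the ubiquitin and damage pathway, 4 were called lower in CMPs, 3 in GMPs and 2 in MEPs, and none was called higher in any population. These are 4 of 97, 3 of 96 and 2 of 96 tested, near or under the shares of all genes called lower there (3.92%, 4.07% and 4.21%). H2afx, the histone variant that is phosphorylated at breaks, fell from 173 ± 68.3 to 25.4 ± 5.72 CPM in CMPs (log2 fold change -2.78, SE 0.31; adjusted p = 0.000682) and was also called in GMPs (272 to 99.3 CPM; adjusted p = 0.00735) and MEPs (-3.34, SE 0.46; adjusted p = 0.00233). Ube2j2, an E2 of the endoplasmic reticulum, fell in the same 3 populations, by 1.95, 2.28 and 1.60 on the log2 scale. Rnf166 was called lower in CMPs (-1.63) and GMPs (-1.13), and Rnf125 was called lower in CMPs (-1.12). Both are RING ligases related in sequence to Rnf138.

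For the 97 pathway genes tested in CMPs the median change (log2) was 0.03, as over all genes (0.03), and in GMPs 0.08 (0.03 over all genes) and MEPs 0.11 (0.05). For the members the medians were -0.13 in CMPs, -0.24 in GMPs, -0.02 in MEPs, -0.57 in LT-HSCs, -0.10 in ST-HSCs and 0.20 in CLPs. All genes had 0.06 in LT-HSCs and 0.07 in CLPs. The LT-HSC median of the members is the value of Ube2a, which the study named with Rnf138 and Ube2d3 from these libraries. That median is therefore not independent of the choice of genes. In CMPs the E1 and other E2 enzymes had a median of -0.17 with 1 of 22 called, and the DNA damage E3 ligases 0.15 with 2 of 31 called; that last median lay between 0.0037 and 0.15 when 1 library was left out. In ST-HSCs those ligases had a median of -0.31 with 0 of 31 called, where all genes had 0.04. In CMPs the list of substrates and translesion synthesis, which holds H2afx, had a median of 0.34. There 12 of 16 genes had a positive change and 1 was called lower. The deubiquitinases had 0 called of 18 to 20 tested, and the readers with the BRCA1-A complex 0 of 8, in each of the 6 populations.

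In the second set, single libraries limit what the labels can carry. Sting (Tmem173) counts were 6333 and 3835 in 2 of the 3 libraries labelled Sting-/- and 1128 in 1 labelled Tet2;Sting double knockout, and 0 in 1 library labelled WT. Tet2 was at 0 in 2 libraries labelled WT and at 24.7 CPM in the other. In libraries labelled Tet2;Sting double knockout it was at 1.3, 19.6 and 41.4 CPM, over the whole gene. Sex moved with the groups, with the Y-linked Eif2s3y at 0 to 0.234 CPM in WT and 157 to 314 in the others and Xist at 89.7 to 240 in WT and 0 to 15.5 in the others, so genotype and sex cannot be told apart against WT. Values of this table were scaled apart from the first and are compared only within it.

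Libraries labelled WT held 655, 683 and 733 CPM of Ube2d3. With the label Sting-/- the values were 381, 453 and 581, and with the double knockout label 112, 122 and 182. The 3 groups did not overlap; between double knockout and Sting-/- 10.9% of genes were lower in that way. The summed CPM of the 8 erythroid markers separated the same groups in the same order (138 to 181 in WT, 89.3 to 130.0 in Sting-/- and 25.2 to 54.9 in the double knockout). T and NK cell markers summed to 47.1 to 60.4 in WT and 108 to 130 in the double knockout (5 of 6 found). Proliferation markers summed to 137 to 545 in WT, 131 to 975 in Sting-/- and 532 to 1392 in the double knockout, with overlap. The part of any of these sums in the values of the members was not tested. Against WT, Ube2d3 was the only member called lower in the double knockout (-2.38, SE 0.30; 5.19-fold; edgeR adjusted p = 0.0163; exact permutation p = 0.10, the smallest for 3 against 3), beside 0.616% of 9745 genes; no member was called higher (0.041% of genes). This call was lost in 5 of the 6 fits that left out 1 library (adjusted p up to 0.121) and with a replicate block (0.0645). Against Sting-/- the change was -1.73 (SE 0.33; adjusted p = 0.124), which was called in DESeq2 (0.016) and with all 9 libraries in one fit (0.0131).

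Ube2d2a was low in the same libraries without passing. It held 78.2, 86.2 and 88.1 CPM in WT, 11.1, 20.2 and 20.8 in Sting-/- and 0.72, 15.4 and 39.05 in the double knockout (adjusted p = 0.856 and 0.57 against WT). It lay below WT without overlap in either knockout group, as 7.34% of genes did in Sting-/- and 13.9% in the double knockout. DESeq2 called it in Sting-/- (adjusted p = 1.9e-05).

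Ube2a was low in the double knockout alone, at 7.76, 11.4 and 19.3 CPM, against 52.6, 85.7 and 101 in Sting-/- and 73.1, 87.3 and 106 in WT (-2.85, SE 0.87; adjusted p = 0.196 against WT; -2.58, SE 1.0; adjusted p = 0.525 against Sting-/-). DESeq2 called both differences (adjusted p = 4.72e-05 and 0.00518). Ube2a is X-linked, and both knockout groups carry the Y-linked transcript. Ube2d2a, Ube2d3, Ube2a and Ube2v1 did not overlap between double knockout and WT; Ube2v1 was the one above WT, as 11.2% of genes were without overlap. Between Sting-/- and WT no member was called in edgeR (0 of 9969 genes lower or higher; 4.71% at an unadjusted p under 0.05, among members Ube2d2a and Ube2d3). Between double knockout and Sting-/- no member was called, beside 0.159% of 9437 genes lower and 0 higher (8.3% at an unadjusted p under 0.05, among members Ube2a and Ube2d3). There DESeq2 called Ube2a and Ube2d3.

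**Figure D3:**
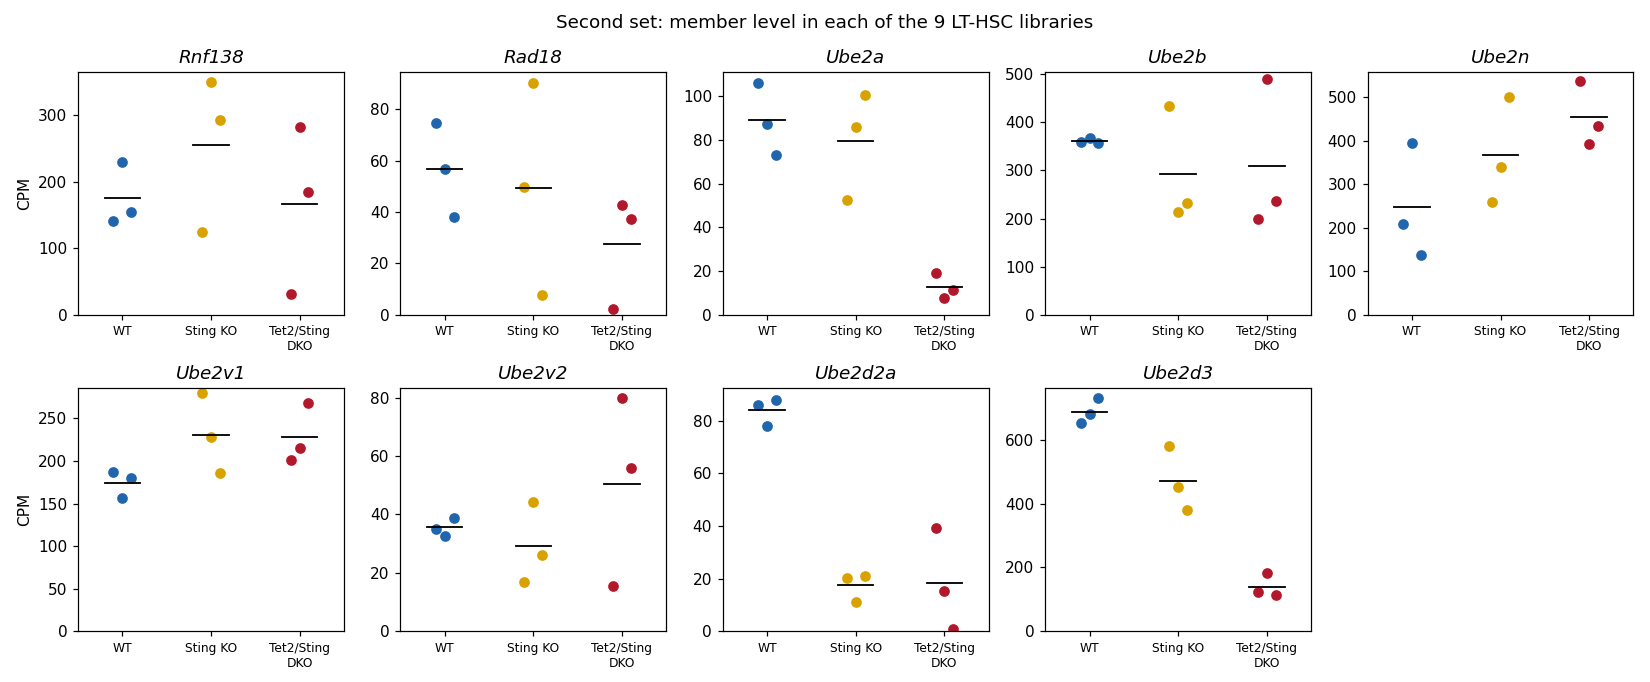
Level of the 9 members in the 9 LT-HSC libraries of the second set, in CPM from 0; points are libraries and bars are means (KO, knockout; DKO, double knockout). Ube2d3 separates the 3 groups, Ube2a is lowest in the double knockout, and Ube2d2a is low in both knockout groups.

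The remaining members were spread within groups. Rnf138 was 31.7, 185 and 282 CPM in the double knockout, 125, 293 and 349 in Sting-/- and 141, 155 and 230.3 in WT. Ube2n was 393, 434 and 538 in the double knockout against 138, 208 and 395 in WT (0.82, SE 0.41; adjusted p = 0.483). Ube2b (199 to 490.4 CPM in the double knockout) and Rad18 (2.22 to 42.8) overlapped their WT ranges of 357 to 369 and 38.2 to 74.8.

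The genes most like each member were those of highest Pearson correlation of log2 CPM over the 46 libraries, among 8873 genes with a mean of at least 10 CPM. For Rad18 they were Ipo5 (r = 0.95) and Cdc6 (0.94), and for Ube2b H3f3b (0.92) and Rgs1 (0.91). Ube2d3 was closest to the ribosomal pseudogenes Rps2-ps8 and Rps2-ps6 (both 0.86). Ube2n was closest to Cfl1 and Cse1l (both 0.89), Ube2v1 to Aamp (0.90) and Sgta (0.88), and Rnf138 to Ttc3 and Trim13 (both 0.81). Ube2v2 was closest to a row listed under a date in place of its symbol (0.85) and to Qtrt1 (0.84). The values for Ube2a (Dlgap5, 0.65; Cks2, 0.64) and Ube2d2a (Jade2, 0.63; Btg3, 0.62) were lower. All of these describe the libraries, which differ mostly by population, and carry no test.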

How the data were processed

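Sorted cells (200 per library by the labels) were amplified to full-length cDNA by a SMART-seq protocol. The deposited values are raw counts of reads per gene, not normalized by the authors. The submitters' processing notes name Trim Galore 0.6.7, HISAT2, DESeq2 and the builds mm10 and mm9. The counting program, annotation and strand setting are not given in the sources used here. Amplified reads without molecular identifiers are not independent molecules. All 55 columns were matched to samples by name, and 2 lines of the second table without values were left out.

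The test was the quasi-likelihood test of edgeR (version 4.0.16, under R 4.3.3), after its filter for low counts and TMM scaling, with p-values adjusted by Benjamini-Hochberg over the genes tested. A call needed an adjusted p under 0.05 and a 2-fold change, while F tests and the mean effect needed the adjusted p alone. Log2 CPM used a prior count of 2 and ratios 0.5. Single values were compared by two-sided exact permutation of libraries. Nothing in the labels names animals, so p-values measure the spread between these samples. A number recurs across populations of a genotype and may mark the same animal, which the joint fits ignored and the voom alternative took as a block. Alternatives were DESeq2 1.42.0, RLE scaling, plain library totals, no filter, a replicate block, joint fits, voom (limma 3.58.1) and leaving out each library. The procedure was tested on simulated data. Named genes were the members, list genes called in a genotype comparison, and the 2 genes most correlated with each member. One further gene of the set is not reported here. The members and lists were chosen with earlier results of these data known.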

Additional observations from a re-analysis of the deposited data

Results flagged for a closer look

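In 4 of the 90 groups of at least 4 libraries checked, 1 library stood apart from the others, and chance alone gives about 1 in 20. Rnf138 in Tet2-/- CMP replicate 2 was 143 CPM, where the others held 90.6 to 95.8. Ube2a in the same library was 64.5, where the others held 89.5 to 90.8. Rad18 in WT GMP replicate 3 was 101, where the others held 81.6 to 84.8. Ube2d3 in Tet2-/- CLP replicate 3 was 216, where the others held 496 to 517.

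The effect of Tet2 loss differed among the 6 populations for Rnf138 (edgeR adjusted p = 0.0469) and Ube2d3 (edgeR adjusted p = 0.018), with the limits given above for both.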

How the results depend on the processing

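The call of Ube2d3 in MEPs held under each alternative run, the replicate block included. In the second set DESeq2 called 1 member between Sting-/- and WT, 2 between double knockout and Sting-/- (1 with all 9 libraries in one fit) and 2 between double knockout and WT (0 with the replicate block). The mean effect passed for 1 member without the low-count filter. The interaction passed for 1 member under RLE scaling, without the filter and with voom. The cause was not tested. The replicate numbers did not pair WT with Tet2-/- samples (correlations of same-numbered libraries from -0.0226 to 0.0347). Across populations of a genotype, same-numbered libraries had median correlations of 0.0216 in WT and 0.0278 in Tet2-/-. For other numbers the medians were -0.0068 and -0.0096. Leaving out 1 library, the members called ranged from 0 to 1 in CMPs, 0 to 1 between double knockout and WT, 1 to 2 for the mean effect, and 0 to 2 for the interaction.

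Medians of gene lists moved by over 0.1 when 1 library was left out in 14 of 30 list and population pairs, 5 of them in CLPs and none in GMPs or MEPs. Small changes that were not called changed sign. Under the replicate block these were Ube2a in MEPs (0.00302), Ube2v1 in LT-HSCs (0.00975), Ube2v2 in ST-HSCs (0.00262) and Ube2d2a between double knockout and Sting-/- (-0.64). In the fit of 46 libraries they were Ube2n (0.0306) and Ube2v1 (0.0255) in GMPs. On leaving out 1 library the log2 fold changes ranged as follows. Between Sting-/- and WT, the ranges were Rad18 -0.985 to 0.31 and Ube2a -0.36 to 0.0203. In ST-HSCs, the ranges were Rad18 -0.028 to 0.56, Ube2a to Ube2b (ratio) -0.28 to 0.12, Ube2d2a -0.13 to 0.20, Ube2v1 -0.17 to 0.24, Ube2v1 to Ube2v2 (ratio) -0.034 to 0.27 and Ube2v2 -0.27 to 0.019. Between double knockout and WT, the ranges were Rnf138 -0.76 to 0.36 and Ube2v2 -0.058 to 0.88. In CMPs, the range was Ube2a -0.0999 to 0.0904. In MEPs, the ranges were Ube2a -0.18 to 0.079, Ube2a to Ube2b (ratio) -0.096 to 0.26, Ube2v1 to Ube2v2 (ratio) -0.55 to 0.49 and Ube2v2 -0.105 to 0.61. In CLPs, the ranges were Ube2a to Ube2b (ratio) -0.28 to 0.50, Ube2d2a -0.21 to 0.47, Ube2d2a to Ube2d3 (ratio) -0.46 to 0.39 and Ube2n -0.015 to 0.27. Between double knockout and Sting-/-, the ranges were Ube2b -0.385 to 0.50, Ube2d2a -1.09 to 0.68 and Ube2v1 -0.13 to 0.17. In LT-HSCs, the ranges were Ube2d2a -0.057 to 0.21 and Ube2v1 -0.39 to 0.20. In GMPs, the ranges were Ube2n -0.064 to 0.038 and Ube2v1 -0.0597 to 0.056. For the mean effect, the range was Ube2v1 -0.092 to 0.018.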
